A study of Macaca mulatta with 24 samples.

Results

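NF-kB pathway and early response genes were examined in colon tissue of young-adult male rhesus macaques (Macaca mulatta) after total-body irradiation, the exposure of the whole animal to radiation. The 50 genes were listed by function: TNF family ligands and receptors, NF-kB subunits, the inhibitors they induce, adaptors and kinases, Toll-like receptors, immediate early transcription factors and other early induced genes. Of these, 43 had a probe that carried their name on the array, among 16134 named genes in all, and all 43 passed the filter on dim probes, as did 14756 of the named genes. The other 7 (TNFAIP2, IKBKE, FOSL1, KLF6, IER5, CEBPD and PLAUR) had no named probe in the files used here. A gene with several probes was represented by the one with the highest mean over the arrays. Each animal gave 1 array: 4 unirradiated controls, which are labelled day 4 and served every day, 4 animals on day 4 and 4 on day 7 after a single dose of 6.7 Gy or 7.4 Gy of cobalt-60 gamma radiation, and 2 animals on day 12 after each dose. The last day was taken from the sample labels, because a protocol label gave another one. Each array is of a different animal, and the irradiated animals of days 7 and 12 had no controls of their own day.

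In resting cells NF-kB dimers are held in the cytoplasm by IkB proteins. Signals from TNF receptors and Toll-like receptors lead to the destruction of IkB, and the dimers then enter the nucleus and induce inflammatory genes together with their own inhibitors, such as NFKBIA and TNFAIP3. Immediate early genes such as FOS, EGR1 and IER3 are switched on without new protein synthesis by growth factors, stress and injury. In the intestine these genes are known to respond to bacterial products and to damage of the epithelium.

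Values are log2 signals relative to the 75th percentile of the same array, so a negative value lies below that percentile. They compare arrays for 1 gene and not genes with each other. A change was called when its adjusted p was under 0.05 (limma, Benjamini-Hochberg over all 38234 probes tested) and its size at least 2-fold. Each log2 change is given ± SE, with 4 arrays in a group unless fewer are named (2 on day 12). The whole wall of the gut was sampled, and in such bulk tissue fewer cells of a type and less RNA per cell cannot be told apart. The 75th percentile ran from 551 to 964 intensity units between arrays, and 66.7 to 85.0% of spots were well above background. Of the members, 37 were well above background on every array. The exceptions were TNFAIP6 and IRAK3 (22 arrays each), RELB and EGR2 (23 each), IRAK2 (17) and FOSB (16). Of 1032 member values, 10 were missing because the spot was marked as an outlier, and those arrays are left out of the fit of that gene.

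On day 4 after 6.7 Gy, 9 of the 43 members rose and 0 fell, against 2.26% of all named genes called higher and 1.8% called lower. After 7.4 Gy, 11 rose and 1 fell, against 4.12% called higher and 3.91% called lower. The median log2 change of the members was 0.52 at 6.7 Gy and 0.44 at 7.4 Gy, and that of all named genes was -0.041 and -0.031. RELB, TNFAIP3, BIRC3, TLR4, EGR1, EGR2, IER3, DUSP1 and CEBPB rose at 6.7 Gy. TNF, TNFAIP3, BIRC3, MAP3K8, TLR2, TLR4, IRAK3, EGR1, EGR2, IER3 and CEBPB rose at 7.4 Gy, where KLF4 fell. The 7 members called higher at both doses were TNFAIP3, BIRC3, TLR4, EGR1, EGR2, IER3 and CEBPB. The 2 comparisons share the same control arrays.

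**Figure D1:**
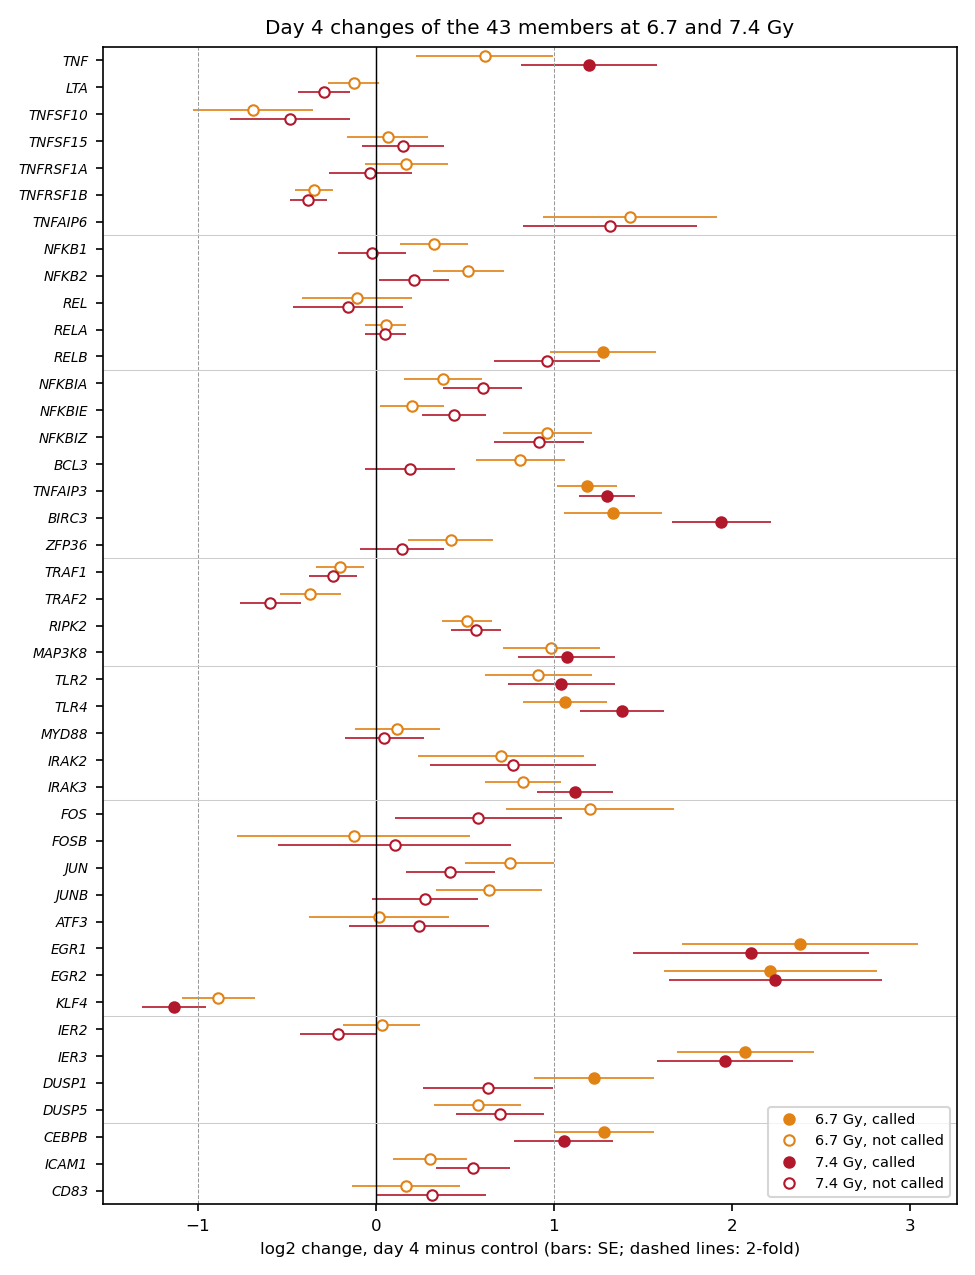
Log2 change on day 4 against the 4 controls for each of the 43 members (rows, ordered by role), at 6.7 Gy (orange) and 7.4 Gy (red), with bars for the SE. Filled points were called, and they range from -1.14 for KLF4 to 2.38 for EGR1.

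The animals of a day 4 group differed from each other. The median over the members of the difference from the control mean was 0.71, 0.89, 0.30 and 0.018 on the 4 arrays of the 6.7 Gy group. It was 0.46, 0.46, 0.70 and 0.12 on those of the 7.4 Gy group. Replicate 4 of either group was thus the lowest of its group. On the control, day 7 and day 12 arrays this median lay between -0.15 and 0.19. In the 6.7 Gy group, replicates 1 and 2 were hybridized at array position 1 and scanned on scan day 2, and replicates 3 and 4 at array position 2 on scan day 1. All 4 controls lay at position 1 and all 4 arrays of the 7.4 Gy group at position 2. The 4 arrays of the 7.4 Gy group were all scanned on scan day 2, and the controls 2 on each scan day. The part of position in these differences was not tested beyond the fits with position as a term, which are given after the genes.

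**Figure D2:**
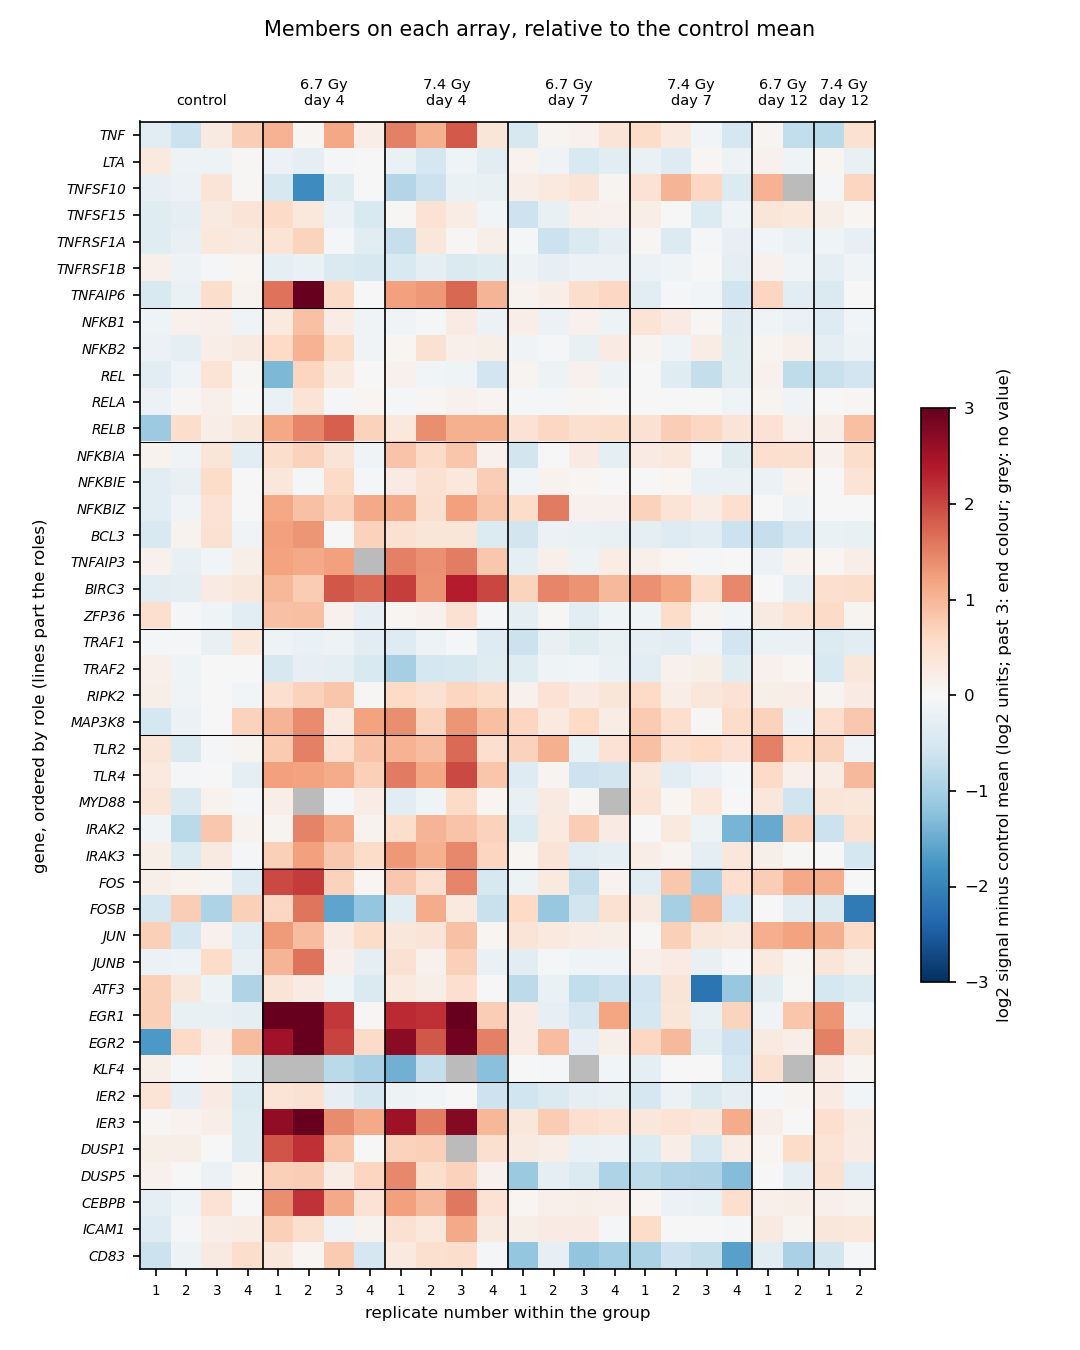
Difference of each member (rows) from its control mean on each of the 24 arrays (columns, by group and replicate), in log2 units, with red above and blue below the control mean and grey for a missing value. The red rows of TNFAIP3, BIRC3, EGR1, EGR2 and IER3 stand in the day 4 columns, and replicate 4 of either day 4 group is paler than the others in the rows of EGR1, EGR2 and IER3.

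Among the TNF family ligands and receptors, 7 genes were measured and TNF alone was called against the controls. TNF, the cytokine that starts inflammatory signalling through NF-kB, read -1.62, -1.92, -1.001 and -0.54 on the control arrays, -0.23, -1.21, -0.11 and -1.07 on day 4 after 6.7 Gy and 0.24, -0.20, 0.58 and -0.91 on day 4 after 7.4 Gy. The 7.4 Gy values were above the controls except on replicate 4, which lay within their range, and the 6.7 Gy values overlapped the controls. TNF rose at 7.4 Gy (log2 change 1.20 ± 0.38 (SE), 2.29-fold, adjusted p = 0.0338), and at 6.7 Gy its log2 change was 0.61 ± 0.38 (adjusted p = 0.335). TNF read -1.74, -1.20, -1.13 and -0.87 after 6.7 Gy and -0.73, -0.97, -1.36 and -1.79 after 7.4 Gy on day 7, and on day 12 -1.18 and -2.01 after 6.7 Gy and -2.08 and -0.81 after 7.4 Gy, all within or below the range of the controls. A second, dimmer TNF probe, above background on 12 arrays, was called at 7.4 Gy as well (log2 change 1.26, adjusted p = 0.0148). The call of TNF was lost without control replicates 1 or 2 or 7.4 Gy day 4 replicates 1 or 3 (log2 changes 0.98 to 1.09, adjusted p = 0.0851 to 0.107). Array position, scan day or slide as a block also lost the call (1.07, 0.94 and 1.02, adjusted p = 0.348, 0.101 and 0.0991). Normexp, another background correction, gave 0.93 (adjusted p = 0.0416), under 2-fold. TNF was not called either with only the groups compared (adjusted p = 0.0769) or under the methods' t-test (adjusted p = 0.136). With position and scan day both in the model the TNF estimate at 7.4 Gy turned to -0.031 (adjusted p = 0.992).

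TNFAIP6, a secreted hyaluronan-binding protein induced by TNF, had changes at least as large that did not pass the test: 1.43 ± 0.49 (adjusted p = 0.0686) at 6.7 Gy and 1.31 ± 0.49 (adjusted p = 0.0629) at 7.4 Gy. Its signal was -4.92, -4.67, -3.93 and -4.37 in the controls, -2.83, -0.93, -3.91 and -4.49 on day 4 after 6.7 Gy and -3.24, -3.18, -2.76 and -3.46 on day 4 after 7.4 Gy. Every 7.4 Gy value lay above every control, and a single array of the 6.7 Gy group, replicate 2, stood far above the rest. TNFSF10, the ligand of the TRAIL death receptors, had log2 changes of -0.69 ± 0.34 (adjusted p = 0.207) and -0.48 ± 0.34 (adjusted p = 0.336). LTA, TNFSF15, TNFRSF1A and TNFRSF1B, which are ligands and receptors of the same family, had log2 changes between -0.38 (TNFRSF1B, 7.4 Gy) and 0.17 (TNFRSF1A, 6.7 Gy). TNFRSF1B was below the lowest control on all 4 arrays of both day 4 groups (adjusted p = 0.042 and 0.0157), by less than 2-fold.

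Of the 5 NF-kB subunits, RELB was called, at 6.7 Gy. RELB, the partner of the subunit made by NFKB2 in the alternative pathway, read -5.74, -4.13, -4.46 and -4.31 in the controls, -3.49, -3.19, -2.87 and -3.98 on day 4 after 6.7 Gy and -4.33, -3.27, -3.59 and -3.59 on day 4 after 7.4 Gy. All 4 values at 6.7 Gy were above all controls, and at 7.4 Gy replicate 1 lay below 2 of the controls. The rise was 2.42-fold at 6.7 Gy (log2 change 1.28 ± 0.30, adjusted p = 0.0122), and the change at 7.4 Gy was 0.96 ± 0.30 (adjusted p = 0.0284), 1.95-fold. On days 7 and 12 it lay between -4.50 and -3.76. The lowest control, replicate 1, was also the 1 array on which RELB was not well above background, and the call was lost without control replicate 1 (log2 change 0.92, adjusted p = 0.0327). With normexp, another background correction, the change fell to 0.35, adjusted p = 0.242, and the call was also lost with the slide as a block, with position and scan day in the model, with only the groups compared and under the methods' t-test. RELA, REL, NFKB1 and NFKB2 were not called on day 4, with log2 changes from -0.16 (REL at 7.4 Gy) to 0.52 (NFKB2 at 6.7 Gy). RELA, the subunit of the classical dimer, had a log2 change of 0.057 ± 0.12 at 6.7 Gy and 0.053 ± 0.12 at 7.4 Gy.

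All 7 inhibitors and feedback genes had positive log2 changes on day 4 at both doses, and TNFAIP3 and BIRC3 passed the test at both. TNFAIP3, a ubiquitin-editing enzyme that shuts off NF-kB signalling, gave -0.45, -0.81, -0.65 and -0.40 on the controls, 0.62, 0.55 and 0.66 on the 3 arrays of the 6.7 Gy group with a value, and 0.93, 0.79, 0.96 and 0.23 on day 4 after 7.4 Gy. No day 4 value overlapped the controls. Its rise was 2.28-fold at 6.7 Gy (log2 change 1.19 ± 0.17, adjusted p = 0.000653, 3 arrays against 4), and 7.4 Gy gave a rise of 2.46-fold (1.30 ± 0.16, adjusted p = 4.3e-05), the smallest adjusted p among the members at either dose. On day 7 it read -0.85, -0.42, -0.73 and -0.35 after 6.7 Gy and -0.41, -0.52, -0.64 and -0.56 after 7.4 Gy, and on day 12 it read -0.76 and -0.47 after 6.7 Gy and -0.51 and -0.38 after 7.4 Gy. At 6.7 Gy its call held under all 41 alternatives, and at 7.4 Gy it was lost under 1, with position and scan day both in the model (1.08, adjusted p = 0.201). Some of the 41 could not lose it: no fold limit only loosens the call, and its 1 probe was used again as the second brightest. Leaving out an array of a group not compared left its log2 change as it was.

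BIRC3, an inhibitor of apoptosis and ubiquitin ligase of the TNF receptor complex, read 0.55, 0.63, 1.14 and 1.24 in the controls, 1.89, 1.65, 2.76 and 2.59 on day 4 after 6.7 Gy and 2.97, 2.23, 3.24 and 2.89 on day 4 after 7.4 Gy. All day 4 values were above all controls. It rose 2.52-fold at 6.7 Gy (log2 change 1.33 ± 0.28, adjusted p = 0.00623) and 7.4 Gy gave a rise of 3.84-fold (1.94 ± 0.28, adjusted p = 0.000135). On day 7 it was 1.56, 2.36, 2.23 and 1.85 after 6.7 Gy and 2.27, 2.07, 1.41 and 2.34 after 7.4 Gy, still above every control on all 8 arrays, but the adjusted p was 0.0878 and 0.0731 (limma). On day 12 the arrays read 0.87 and 0.59 after 6.7 Gy and 1.40 and 1.43 after 7.4 Gy. With array position as a block BIRC3 was not called at 6.7 Gy (0.88, adjusted p = 0.0803) or 7.4 Gy (1.04, adjusted p = 0.13). With position and scan day both in the model its change fell further at each dose (0.71, adjusted p = 0.21 at 6.7 Gy and 0.54, adjusted p = 0.703 at 7.4 Gy). The call at 6.7 Gy was also lost under the methods' t-test (adjusted over all probes). BIRC3 was the member with the smallest adjusted p against the controls on day 7 at either dose.

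NFKBIA, a cytoplasmic IkB protein that NF-kB itself induces, was measured at 3.13, 2.92, 3.39 and 2.69 in the controls, 3.55, 3.73, 3.42 and 2.94 on day 4 after 6.7 Gy and 3.89, 3.62, 3.87 and 3.16 on day 4 after 7.4 Gy. The groups overlapped at both doses. Its log2 changes, 0.38 ± 0.22 (adjusted p = 0.298) at 6.7 Gy and 0.60 ± 0.22 (adjusted p = 0.061) at 7.4 Gy, did not pass the test. Day 7 arrays gave 2.49, 3.02, 3.28 and 2.74 after 6.7 Gy and 3.28, 3.35, 2.98 and 2.66 after 7.4 Gy, and on day 12 3.53 and 3.50 after 6.7 Gy and 3.17 and 3.56 after 7.4 Gy. NFKBIZ, a nuclear IkB that assists transcription, was above every control on all 8 day 4 arrays with a change just short of 2-fold (0.96 ± 0.25, adjusted p = 0.0217, and 0.92 ± 0.25, adjusted p = 0.0156). BCL3, another nuclear IkB, had 0.81 ± 0.25 (adjusted p = 0.0462) at 6.7 Gy and 0.19 ± 0.25 (adjusted p = 0.632) at 7.4 Gy. NFKBIE, a cytoplasmic IkB, and ZFP36, which destabilises TNF mRNA, had log2 changes of 0.15 to 0.44.

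Among the adaptors and kinases, MAP3K8 was called at 7.4 Gy. MAP3K8, the kinase that links NF-kB activation to the ERK pathway, gave -3.54, -3.19, -2.98 and -2.32 in the controls, -1.99, -1.59, -2.72 and -1.79 on day 4 after 6.7 Gy and -1.61, -2.33, -1.69 and -2.11 on day 4 after 7.4 Gy. Control replicate 4 was above the lowest value of either day 4 group, and the other controls were below them all. The rise at 7.4 Gy was 2.1-fold (log2 change 1.07 ± 0.27, adjusted p = 0.00989), and the 1.98-fold change at 6.7 Gy (0.99 ± 0.27, adjusted p = 0.0285) missed the 2-fold limit. On day 7 MAP3K8 read -2.37, -2.71, -2.41 and -2.78 after 6.7 Gy and -2.23, -2.50, -2.96 and -2.45 after 7.4 Gy, and on day 12 -2.31 and -3.18 after 6.7 Gy and -2.49 and -2.21 after 7.4 Gy. A second MAP3K8 probe was not called (0.48 and 0.61, adjusted p = 0.247 and 0.0965), and the call was lost without control replicate 1 or 7.4 Gy day 4 replicates 1 or 3 (log2 changes 0.90 to 0.99, adjusted p = 0.0331 to 0.0376). RIPK2, a kinase below the NOD receptors, had log2 changes of 0.51 ± 0.14 (adjusted p = 0.028) and 0.56 ± 0.14 (adjusted p = 0.00908), under 2-fold. TRAF2, an adaptor of the TNF receptors, was below all controls on all 8 day 4 arrays by less than 2-fold (-0.37 ± 0.17, adjusted p = 0.181, and -0.59 ± 0.17, adjusted p = 0.0202), and TRAF1, its relative, had -0.20 ± 0.14 (adjusted p = 0.369) and -0.24 ± 0.14 (adjusted p = 0.223).

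All 5 Toll-like receptors and adaptors had positive log2 changes on day 4 at both doses. TLR4, the receptor of bacterial lipopolysaccharide, read -1.29, -1.61, -1.57 and -1.85 in the controls, -0.35, -0.38, -0.46 and -0.87 on day 4 after 6.7 Gy and -0.028, -0.42, 0.40 and -0.74 on day 4 after 7.4 Gy. All 8 day 4 values were above all controls. TLR4 rose 2.09-fold at 6.7 Gy (log2 change 1.06 ± 0.24, adjusted p = 0.00942) and 7.4 Gy gave a rise of 2.61-fold (1.38 ± 0.24, adjusted p = 0.000598), and its 2 other probes gave 1.11 and 0.98 at 6.7 Gy and 1.42 and 1.20 at 7.4 Gy. On day 7 it read -1.97, -1.51, -2.20 and -2.13 after 6.7 Gy and -1.24, -1.89, -1.75 and -1.61 after 7.4 Gy, below every day 4 value, and on day 12 -1.02 and -1.43 after 6.7 Gy and -1.37 and -0.60 after 7.4 Gy. The call at 6.7 Gy was lost without control replicate 4 (log2 change 0.98, adjusted p = 0.0311).

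TLR2, the receptor of bacterial lipoproteins, gave -3.09, -3.89, -3.51 and -3.38 in the controls, -2.70, -1.95, -2.96 and -2.62 on day 4 after 6.7 Gy and -2.42, -2.54, -1.78 and -2.97 on day 4 after 7.4 Gy. No day 4 value reached down to the controls at either dose. It rose 2.06-fold at 7.4 Gy (log2 change 1.04 ± 0.30, adjusted p = 0.0195) and had 0.91 ± 0.30 (adjusted p = 0.0589) at 6.7 Gy. On day 7 the values were -2.78, -2.41, -3.67 and -3.04 after 6.7 Gy and -2.58, -2.97, -2.88 and -3.05 after 7.4 Gy, and on day 12 -1.96 and -2.88 after 6.7 Gy and -2.81 and -3.56 after 7.4 Gy. The call was lost without control replicate 2 or 7.4 Gy day 4 replicate 3 (log2 changes 0.83 to 0.90, adjusted p = 0.0602 to 0.0729).

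IRAK3, a pseudokinase that restrains Toll-like receptor signalling, was at -4.59, -5.17, -4.50 and -4.81 in the controls, -4.05, -3.53, -3.96 and -4.21 on day 4 after 6.7 Gy and -3.46, -3.69, -3.32 and -4.12 on day 4 after 7.4 Gy, with no overlap at either dose. IRAK3 rose 2.17-fold at 7.4 Gy (log2 change 1.12 ± 0.21, adjusted p = 0.0014), and its 1.77-fold change at 6.7 Gy (0.83 ± 0.21, adjusted p = 0.0205) was under the 2-fold limit. Its day 7 values were -4.70, -4.37, -5.09 and -5.03 after 6.7 Gy and -4.58, -4.69, -5.04 and -4.41 after 7.4 Gy, and on day 12 -4.60 and -4.72 after 6.7 Gy and -4.77 and -5.28 after 7.4 Gy. The call at 7.4 Gy was lost without control replicate 2 (log2 change 0.99, adjusted p = 0.006). IRAK2, an activating kinase of the same family, had 0.70 ± 0.47 (adjusted p = 0.365) and 0.77 ± 0.47 (adjusted p = 0.261), and MYD88, the adaptor shared by most Toll-like receptors, had 0.12 ± 0.24 (adjusted p = 0.799) and 0.048 ± 0.22 (adjusted p = 0.907).

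Markers of other cells moved on the same arrays. The summed signal of 7 monocyte and macrophage markers (of 10 listed), in units of the 75th percentile, was 69.3 to 104 in the controls, 90.0 to 124 on day 4 after 6.7 Gy and 115 to 149 on day 4 after 7.4 Gy. LYZ was called among them at 7.4 Gy (log2 change 1.104, adjusted p = 0.0445), and MARCO was above background on 10 arrays. Of 8 neutrophil markers 3 were measured: S100A8 and S100A9 rose at 7.4 Gy (3.61, adjusted p = 0.0312, and 2.23, adjusted p = 0.0198), while CSF3R had -0.42 (adjusted p = 0.0451) and MPO was above background on 0 arrays. The summed signal of these 3 and MPO was 0.600 to 0.720 in the controls, 0.626 to 4.19 at 6.7 Gy and 0.944 to 10.3 at 7.4 Gy on day 4. T lymphocyte markers, 7 of 7 measured, summed to 21.6 to 23.4 in the controls and to 16.4 to 20.5 over both day 4 groups. Fibroblast markers, 6 of 6 measured, summed to 106 to 256 in the controls, 156 to 194 at 6.7 Gy and 238 to 342 at 7.4 Gy on day 4, where COL1A2 and COL3A1, collagen genes, were called (1.78, adjusted p = 0.00451, and 1.004, adjusted p = 0.0245). Endothelial markers, 5 of 5 measured, summed to 3.04 to 3.85 in the controls, 3.97 to 5.44 at 6.7 Gy and 1.92 to 7.04 at 7.4 Gy, and VWF, the von Willebrand factor, was called at 7.4 Gy (1.23, adjusted p = 0.000579). The part of these cells in the levels of TNF, TLR2, TLR4, IRAK3 and CEBPB was not tested.

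The immediate early transcription factors held the largest changes. EGR1, a zinc finger factor induced by growth signals and stress, read -3.48, -4.42, -4.43 and -4.48 in the controls, -0.72, -0.30, -2.09 and -4.17 on day 4 after 6.7 Gy and -1.96, -2.02, -0.95 and -3.46 on day 4 after 7.4 Gy. Replicate 4 of the 6.7 Gy group lay within the controls, and all other day 4 values were above the controls, replicate 4 of the 7.4 Gy group by a small margin. EGR1 rose 5.22-fold at 6.7 Gy (log2 change 2.38 ± 0.66, adjusted p = 0.0292) and 7.4 Gy gave a rise of 4.31-fold (2.11 ± 0.66, adjusted p = 0.0311). By day 7 EGR1 read -3.97, -4.45, -4.72 and -3.01 after 6.7 Gy and -4.72, -3.84, -4.42 and -3.53 after 7.4 Gy, and on day 12 -4.30 and -3.37 after 6.7 Gy and -2.87 and -4.32 after 7.4 Gy. Its spread on day 4 was wide: the call at 6.7 Gy was lost without control replicates 2, 3 or 4 or 6.7 Gy day 4 replicates 1, 2 or 3 (log2 changes 1.88 to 2.47, adjusted p = 0.0502 to 0.0932), and that at 7.4 Gy without control replicates 2, 3 or 4 or 7.4 Gy day 4 replicates 1, 2 or 3 (log2 changes 1.72 to 2.08, adjusted p = 0.055 to 0.1).

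EGR2, a relative of EGR1, gave -6.00, -3.69, -4.06 and -3.33 in the controls, -1.75, -0.50, -2.25 and -3.70 on day 4 after 6.7 Gy and -1.57, -2.40, -1.37 and -2.75 on day 4 after 7.4 Gy. The 7.4 Gy values were all above the controls, and replicate 4 of the 6.7 Gy group was within their range. The rise was 4.65-fold at 6.7 Gy (log2 change 2.22 ± 0.60, adjusted p = 0.0256) and 7.4 Gy gave a rise of 4.74-fold (2.25 ± 0.60, adjusted p = 0.0131). Day 7 arrays read -4.03, -3.33, -4.51 and -4.10 after 6.7 Gy and -3.65, -3.29, -4.62 and -4.89 after 7.4 Gy, and day 12 arrays -4.01 and -4.06 after 6.7 Gy and -2.77 and -3.90 after 7.4 Gy. Control replicate 1, at which EGR2 was not well above background, was the lowest array. The call at 6.7 Gy was lost without control replicate 1 or 6.7 Gy day 4 replicates 1 or 2 (log2 changes 1.64 to 2.12, adjusted p = 0.0632 to 0.0858), and at 7.4 Gy without control replicate 1 (log2 change 1.67, adjusted p = 0.0501).

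FOS, the partner of JUN in the AP-1 factor, stood at 3.54, 3.46, 3.45 and 2.98 in the controls, 5.32, 5.46, 4.04 and 3.41 on day 4 after 6.7 Gy and 4.17, 3.86, 4.83 and 2.87 on day 4 after 7.4 Gy. Replicates 1 and 2 of the 6.7 Gy group were the highest of all arrays, and both groups overlapped the controls through replicate 4. The log2 changes, 1.20 ± 0.47 (adjusted p = 0.109) at 6.7 Gy and 0.58 ± 0.47 (adjusted p = 0.415) at 7.4 Gy, did not pass the test. FOS read 3.20, 3.66, 2.63 and 3.46 after 6.7 Gy and 3.05, 4.16, 2.37 and 3.86 after 7.4 Gy on day 7 and 4.09 and 4.49 after 6.7 Gy and 4.45 and 3.34 after 7.4 Gy on day 12. JUN and JUNB, which pair with FOS, had 0.75 ± 0.25 (adjusted p = 0.0629) and 0.64 ± 0.30 (adjusted p = 0.184) at 6.7 Gy and 0.42 ± 0.25 (adjusted p = 0.253) and 0.28 ± 0.30 (adjusted p = 0.551) at 7.4 Gy. FOSB and ATF3, of the same wider family, had log2 changes between -0.12 and 0.24. Of the other ATF3 probes at 7.4 Gy, 1 had 1.07 (adjusted p = 0.0666), and the rest had 0.038 and -0.087 (adjusted p = 0.955 and 0.885).

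KLF4, a zinc finger factor of differentiated colon epithelium, was the member that fell. Its signal was 5.07, 4.86, 4.96 and 4.67 in the controls, 4.09 and 3.92 on the 2 arrays with a value on day 4 after 6.7 Gy, and 3.45, 4.16 and 3.64 on the 3 arrays with a value on day 4 after 7.4 Gy. All these day 4 values were below all controls. At 7.4 Gy KLF4 fell 2.2-fold (log2 change -1.14 ± 0.18, adjusted p = 0.000759), and at 6.7 Gy it was 1.85-fold lower (-0.88 ± 0.20, adjusted p = 0.0161), under the limit. It read 4.87, 4.83 and 4.80 on 3 arrays and 4.61, 4.89, 4.88 and 4.35 on 4 arrays of day 7, and 5.35 on 1 array and 5.16 and 4.98 on 2 arrays of day 12, after 6.7 and 7.4 Gy. A second KLF4 probe gave -0.82 and -1.24 on day 4 and was called at 7.4 Gy (adjusted p = 0.00051). Without 7.4 Gy day 4 replicate 1 (log2 change -0.99, adjusted p = 0.00563), or with spike-in scaling (-0.86, adjusted p = 0.00365), the first probe was not called. Colon epithelium markers, 8 of 9 measured, summed to 201 to 224 in the controls and to 82.3 to 129 and 60.3 to 108 on day 4. Of them 3 were called lower at 6.7 Gy and 4 at 7.4 Gy, against 1.8% and 3.91% of named genes. SLC26A3, a chloride exchanger of surface cells, was at -4.32 (adjusted p = 0.000739) after 7.4 Gy. The part of these markers' cells in the level of KLF4 was not tested.

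Of the other early response genes, IER3, a stress-induced regulator of cell survival, read -0.17, -0.11, -0.0052 and -0.58 in the controls, 2.45, 2.87, 1.21 and 0.93 on day 4 after 6.7 Gy and 2.33, 1.32, 2.55 and 0.79 on day 4 after 7.4 Gy. Every day 4 value was above every control. IER3 rose 4.22-fold at 6.7 Gy (log2 change 2.08 ± 0.38, adjusted p = 0.00319) and 7.4 Gy gave a rise of 3.9-fold (1.96 ± 0.38, adjusted p = 0.00159), and its second probe gave 1.91 and 1.73. On day 7 it was 0.12, 0.55, 0.29 and 0.19 after 6.7 Gy and 0.13, 0.18, 0.14 and 0.89 after 7.4 Gy, and on day 12 -0.0049 and -0.23 after 6.7 Gy and 0.29 and 0.062 after 7.4 Gy. At 7.4 Gy its call held under all 41 alternatives, and at 6.7 Gy it was lost under 1, the methods' t-test (adjusted p = 0.0838). Among the 41, no fold limit could not lose it, and leaving out an array of a group not compared left its log2 change as it was.

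DUSP1, a phosphatase that switches off MAP kinases, gave 0.44, 0.43, 0.28 and -0.11 in the controls, 2.14, 2.46, 1.096 and 0.27 on day 4 after 6.7 Gy and 0.96, 0.98 and 0.74 on 3 arrays of day 4 after 7.4 Gy. As with FOS, replicates 1 and 2 of the 6.7 Gy group were the highest and replicate 4 lay within the controls, while the 3 values at 7.4 Gy were all above the controls. It rose 2.34-fold at 6.7 Gy (log2 change 1.23 ± 0.34, adjusted p = 0.0283), and at 7.4 Gy the change was 0.63 ± 0.36 (adjusted p = 0.236). Later values were 0.52, 0.47, 0.071 and 0.087 after 6.7 Gy and -0.15, 0.47, -0.22 and 0.48 after 7.4 Gy on day 7 and 0.32 and 0.82 after 6.7 Gy and 0.66 and 0.51 after 7.4 Gy on day 12. The call was lost without control replicates 3 or 4 or 6.7 Gy day 4 replicates 1 or 2 (log2 changes 0.91 to 1.23, adjusted p = 0.0565 to 0.0882). DUSP5, a phosphatase of ERK, had 0.57 ± 0.25 (adjusted p = 0.144) and 0.70 ± 0.25 (adjusted p = 0.0507), and IER2, an early induced nuclear protein, had 0.033 ± 0.22 (adjusted p = 0.946) and -0.21 ± 0.22 (adjusted p = 0.531).

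CEBPB, a transcription factor of inflammatory and acute phase genes, read -3.61, -3.45, -2.89 and -3.31 in the controls, -1.92, -1.16, -2.19 and -2.87 on day 4 after 6.7 Gy and -2.08, -2.34, -1.72 and -2.89 on day 4 after 7.4 Gy. At 6.7 Gy all values were above the controls, and at 7.4 Gy replicate 4 lay just below the highest control. It rose 2.43-fold at 6.7 Gy (log2 change 1.28 ± 0.28, adjusted p = 0.00867) and 7.4 Gy gave a rise of 2.08-fold (1.06 ± 0.28, adjusted p = 0.0126). Its values were -3.25, -3.15, -3.13 and -3.15 after 6.7 Gy and -3.26, -3.49, -3.52 and -2.81 after 7.4 Gy on day 7 and -3.17 and -3.14 after 6.7 Gy and -3.16 and -3.20 after 7.4 Gy on day 12. Of its 2 other probes, 1 was called at both doses (1.27 and 1.22) and the other was not (0.32 and -0.54). The call at 6.7 Gy was lost without 6.7 Gy day 4 replicate 2 (log2 change 0.99, adjusted p = 0.0285), and that at 7.4 Gy without control replicate 1 or 7.4 Gy day 4 replicates 1 or 3 (log2 changes 0.88 to 0.997, adjusted p = 0.0386 to 0.0498). ICAM1, an adhesion molecule for leukocytes, had 0.31 ± 0.21 (adjusted p = 0.376) and 0.55 ± 0.21 (adjusted p = 0.0693), and CD83, a marker of mature dendritic cells, had 0.17 ± 0.31 (adjusted p = 0.778) and 0.31 ± 0.31 (adjusted p = 0.506).

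**Figure D3:**
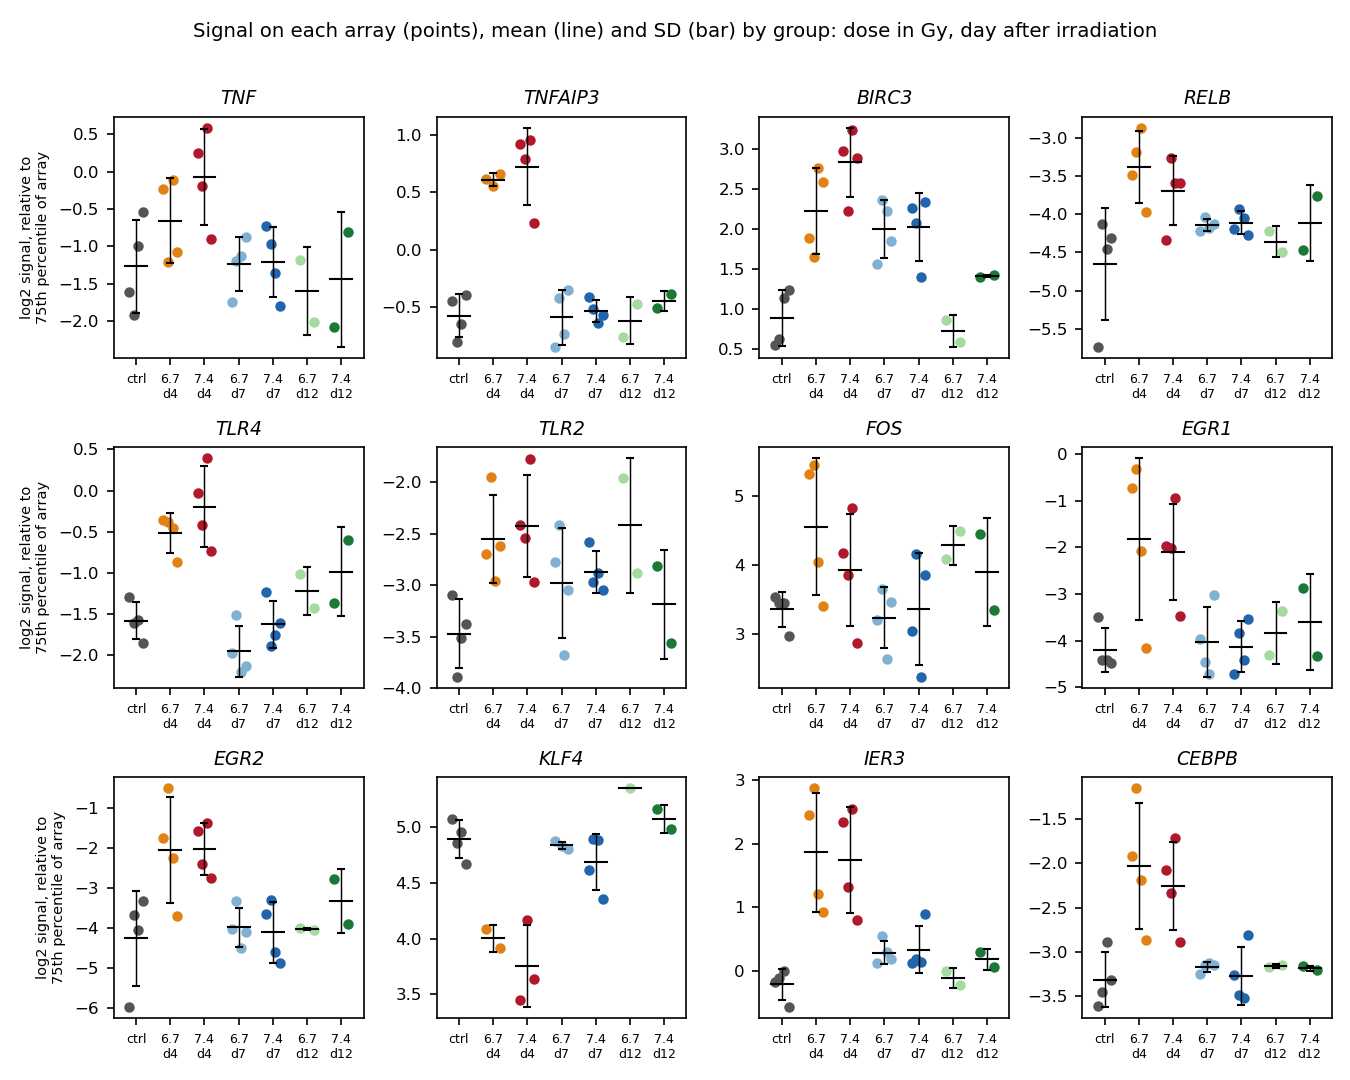
Log2 signal relative to the 75th percentile of the array for 12 members, with 1 point per array, a line for the group mean and a bar for the SD (groups of at least 2 values), by dose and day. TNFAIP3, TLR4, IER3 and EGR2 stand high in both day 4 groups and near the controls on day 7, BIRC3 is still between 1.41 and 2.36 on day 7, and KLF4 is lowest on day 4.

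Batch terms and the background correction changed some of these calls. With the slide as a block 4 of the 9 calls at 6.7 Gy were kept (BIRC3, CEBPB, IER3 and TNFAIP3) and 6 of the 12 at 7.4 Gy (BIRC3, IER3, IRAK3, KLF4, TLR4 and TNFAIP3), with no other member called. With array position as a block 8 of the 9 and 9 of the 12 were kept, and 6 and 5 more members were called. The 6.7 Gy change in that fit is the difference of replicates 1 and 2 alone from the controls. Replicates 3 and 4, at position 2, only set the position effect. With scan day as a block all 9 were kept at 6.7 Gy and 1 more member was called. At 7.4 Gy 8 of the 12 were kept, and TNF, MAP3K8, EGR1 and CEBPB were lost. With position and scan day together 7 of the 9 were kept, and 2 of the 12 at 7.4 Gy (IER3 and KLF4), while 6 and 1 more members were called. In the fit with position alone, the position effect of the 7.4 Gy group is drawn from the 6.7 Gy group alone, since the 7.4 Gy arrays and the controls share no position. In the fit with both, it also rests on the scan day effect, since position and scan day coincide within the 6.7 Gy group. That scan day effect is drawn from the controls and the 6.7 Gy arrays of day 7. With normexp 4 of the 9 were kept (BIRC3, DUSP1, IER3 and TNFAIP3) and 6 of the 12 (BIRC3, EGR2, IER3, KLF4, TLR4 and TNFAIP3). Within slide 1 all 9 members called at 6.7 Gy were higher than the control of that slide, and within slide 2 this was so of 6 of the 8 with a value, DUSP1 and EGR2 being the exceptions (-0.17 and -0.012). Within scan day 1 the differences of the 9 were 0.24 to 2.08, within scan day 2 they were 0.58 to 3.94, and at array position 1 they were 0.88 to 3.69. The last are the estimates of the fit with position as a block and not a separate check. Of the 12 members called at 7.4 Gy, all had the same direction within slide 3 and within scan day 2, and 11 within slide 4, where MAP3K8 had -0.014. Each slide difference is of 1 array against 1 control. Called members that reached 2-fold in that direction were 7 of 9 within slide 1, 2 of 8 within slide 2, 11 of 12 within slide 3 and 5 of 12 within slide 4. The members were called on these same arrays, so their directions here are not a separate check.

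**Figure D4:**
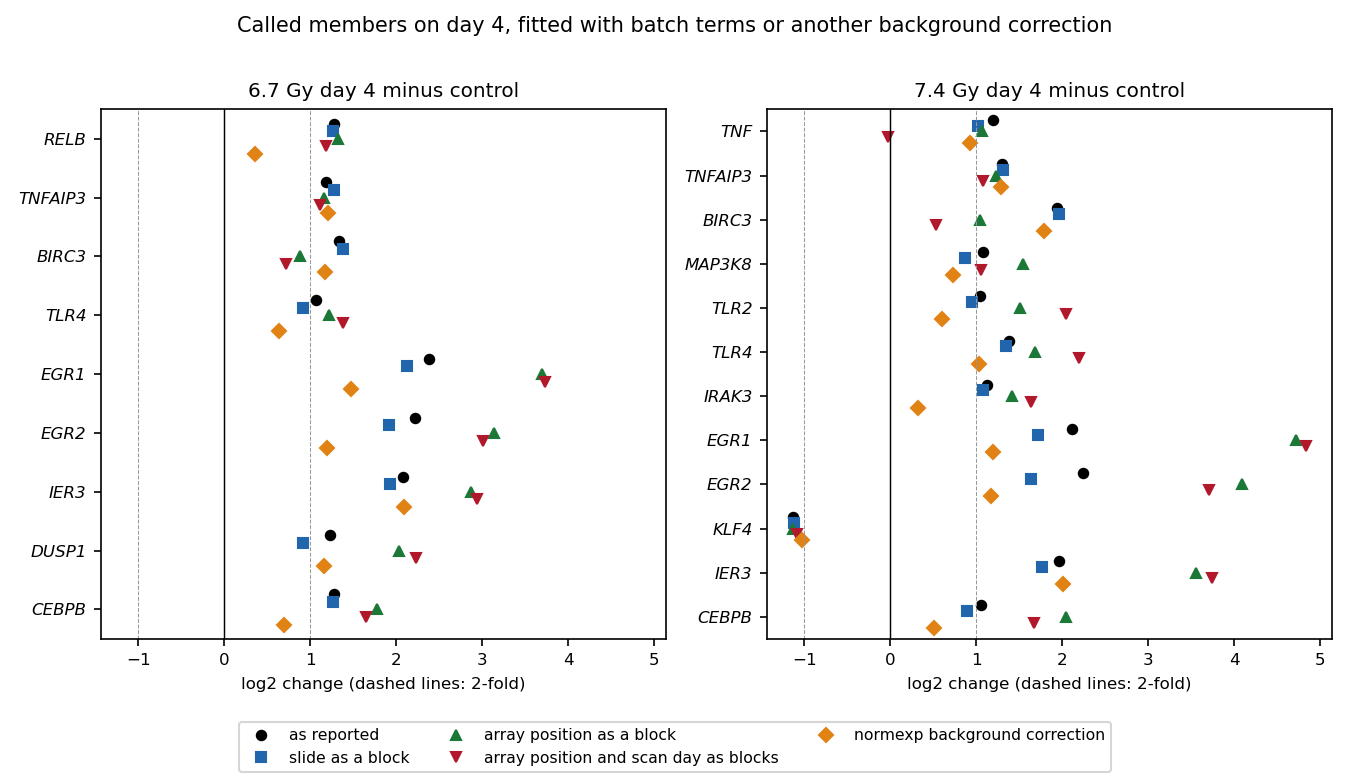
Log2 change on day 4 against control of the 9 members called at 6.7 Gy (left) and the 12 called at 7.4 Gy (right), as reported (black) and with slide, array position, or position and scan day as blocks, or with another background correction. TNFAIP3 lies between 1.08 and 1.31 in these fits while EGR1 runs from 1.19 to 4.84.

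On days 7 and 12 no member was called against the controls at either dose. The share of named genes called was 0.386% and 0.468% on day 7 and 0.0136% and 0.0203% on day 12, after 6.7 and 7.4 Gy. An unadjusted p under 0.05 (limma) was found for 5 and 6 of the 43 members on day 7, against 10.4% and 12.4% of named genes, and for 2 and 2 on day 12, against 7.49% and 7.05%. The members' log2 changes on day 7 ran from -0.91 for CD83 to 1.11 for BIRC3 at 6.7 Gy, and from -0.98 for CD83 to 1.13 for BIRC3 at 7.4 Gy. On day 12, with 2 animals in a group, JUN had the smallest adjusted p at both doses (1.14 ± 0.31, adjusted p = 0.348, and 0.82 ± 0.31, adjusted p = 0.567). JUN read 3.95, 2.71, 3.37 and 2.92 in the controls and 4.32 and 4.43 after 6.7 Gy and 4.30 and 3.81 after 7.4 Gy on day 12.

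Members were also compared between days among the irradiated animals. The day 4 arrays are those already compared with the controls. Between day 4 and day 7, over both doses, 9 members fell and 0 rose, against 2.26% of named genes called lower and 2.57% called higher. The median log2 change of the members was -0.43, and that of all named genes was 0.024. EGR1 (-2.12 ± 0.47, adjusted p = 0.00288), EGR2 (-2.01 ± 0.42, adjusted p = 0.00202), IER3 (-1.50 ± 0.27, adjusted p = 0.000637), TLR4 (-1.43 ± 0.17, adjusted p = 2.13e-05), TNFAIP3 (-1.23 ± 0.12, adjusted p = 7.38e-06) and CEBPB (-1.07 ± 0.20, adjusted p = 0.000739) were among those that fell, and all 6 had risen at both doses on day 4. TNFAIP3 and TLR4 did not overlap between the days, so that all 8 arrays of day 7 were below all of day 4. The other 3 had not been called on day 4. DUSP5 fell by 2.75-fold (-1.46 ± 0.17, adjusted p = 2.33e-05), with 0.84, 0.70, 0.54 and 0.78 in the controls, -0.39, 0.43, 0.28 and -0.22 on day 7 after 6.7 Gy and -0.049, -0.15, -0.18 and -0.59 after 7.4 Gy, all 8 day 7 values being below the lowest control and the day 4 values. CD83 fell by 2.27-fold (-1.18 ± 0.22, adjusted p = 0.000689), with -1.19 to -0.25 and -1.63 to -0.61 on day 7 against -0.64 to 0.52 in the controls. TNFAIP6 fell as well (-1.32 ± 0.35, adjusted p = 0.00884), and this call was lost without 6.7 Gy day 4 replicate 2 (log2 change -0.97, adjusted p = 0.00493). The call of CEBPB was lost without 6.7 Gy day 4 replicate 2 or 7.4 Gy day 4 replicate 3 (log2 changes -0.98 to -0.93, adjusted p = 0.00118 to 0.00212), and with slide or scan day as a block. Both were lost with normexp.

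Between day 4 and day 12, 9 members fell and 2 rose, against 3.32% of named genes called lower and 4.02% called higher. The members' median was -0.36, and that of all named genes 0.062. TNF (-1.16 ± 0.33, adjusted p = 0.0164), TNFAIP6 (-1.40 ± 0.42, adjusted p = 0.0211), TNFAIP3 (-1.20 ± 0.14, adjusted p = 2.79e-05), BIRC3 (-1.45 ± 0.24, adjusted p = 0.000332), IRAK3 (-1.05 ± 0.19, adjusted p = 0.000562), EGR1 (-1.76 ± 0.58, adjusted p = 0.0315), EGR2 (-1.65 ± 0.52, adjusted p = 0.0265), IER3 (-1.78 ± 0.33, adjusted p = 0.000886) and CEBPB (-1.02 ± 0.24, adjusted p = 0.00507) fell. KLF4 rose (1.33 ± 0.18, adjusted p = 0.000194, 1 and 2 arrays with a value on day 12), and so did TNFSF10 (1.26 ± 0.34, adjusted p = 0.0119), which read 0.49, -0.91, 0.63 and 0.96 and 0.11, 0.34, 0.78 and 0.77 on day 4 and 2.02 on 1 array and 0.93 and 1.62 on 2 arrays of day 12, after 6.7 and 7.4 Gy.

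Several of these calls were lost when 1 array was left out, of day 4 or day 12. The call of TNF was lost without 6.7 Gy day 12 replicate 2 or 7.4 Gy day 12 replicate 1 (log2 changes -0.95 to -0.84, adjusted p = 0.0931 to 0.125), and that of TNFAIP6 without 6.7 Gy day 12 replicate 2 or 7.4 Gy day 12 replicate 1 (log2 changes -1.29 to -1.16, adjusted p = 0.0821 to 0.107). EGR1 was not called without 6.7 Gy day 12 replicate 1 or 6.7 Gy day 4 replicates 1 or 2 or 7.4 Gy day 12 replicate 2 or 7.4 Gy day 4 replicate 3 (log2 changes -1.58 to -1.40, adjusted p = 0.0554 to 0.149), and EGR2 without 6.7 Gy day 12 replicates 1 or 2 or 7.4 Gy day 12 replicate 2 (log2 changes -1.66 to -1.36, adjusted p = 0.0729 to 0.123). For IRAK3 this held without 6.7 Gy day 4 replicate 2 or 7.4 Gy day 12 replicate 2 or 7.4 Gy day 4 replicate 3 (log2 changes -0.999 to -0.93, adjusted p = 0.00112 to 0.00714), for CEBPB without 6.7 Gy day 4 replicate 2 or 7.4 Gy day 4 replicates 1 or 3 (log2 changes -0.99 to -0.88, adjusted p = 0.00615 to 0.0102) and for TNFSF10 without 7.4 Gy day 12 replicate 2 (log2 change 1.08, adjusted p = 0.0572). With normexp TNF, TNFAIP6, IRAK3, EGR1, EGR2 and CEBPB were not called. TNFAIP3, BIRC3, IER3 and KLF4 kept the call under every alternative that could be fitted, of which some could not lose it.

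The doses were compared on the same day. No member was called on day 4, 7 or 12, nor was any of the named genes (0% of them on each day), and no member was called when the dose difference of day 7 was set against that of day 4 (0.00678% of named genes). An unadjusted p under 0.05 (limma) was found for 2 of the 43 members on day 4, BCL3 and BIRC3, against 7.22% of named genes, and for 0 on days 7 and 12, against 1.78% and 3.57%. BIRC3 had a log2 difference of 0.61 between 7.4 and 6.7 Gy on day 4 (95% interval 0.033 to 1.18, adjusted p = 0.797), and BCL3 had -0.62 (-1.14 to -0.096, adjusted p = 0.732). For TNF, called at 7.4 Gy alone, the difference was 0.59 (-0.22 to 1.39, adjusted p = 0.89). The 95% interval reached a 2-fold difference for 11 of the 43 members on day 4, for 7 on day 7 and for 20 on day 12, so a difference of that size is not excluded for these genes.

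Other genes of the 2 pathways, listed by function, were counted beside the members. Of 44 further NF-kB pathway genes measured (51 listed), 3 rose and 0 fell at 6.7 Gy on day 4, and 4 rose and 0 fell at 7.4 Gy, with median log2 changes of -0.060 and -0.021. Of all named genes, 2.26% were called higher and 1.8% lower at 6.7 Gy, and 4.12% and 3.91% at 7.4 Gy. TNIP3, which binds TNFAIP3 and limits NF-kB signalling, had the largest change (3.80, adjusted p = 0.000299 at 6.7 Gy and 4.42, adjusted p = 1.88e-05 at 7.4 Gy) and was called on day 7 as well (3.12, adjusted p = 0.01, and 2.88, adjusted p = 0.0146). VCAM1, an adhesion molecule of activated endothelium, rose at both doses (1.40, adjusted p = 0.00222, and 1.34, adjusted p = 0.000974), as did SOD2, the mitochondrial superoxide dismutase (1.52, adjusted p = 0.0151, and 1.63, adjusted p = 0.00498). LY96, the coreceptor of TLR4, rose at 7.4 Gy (1.18, adjusted p = 0.00638). Of 34 further early response genes measured (37 listed), 5 rose and 0 fell at either dose, against the same shares of named genes, with medians of 0.41 and 0.23. They were the nuclear receptor NR4A2 (3.05, adjusted p = 0.0106, and 2.37, adjusted p = 0.0211), the matricellular genes CTGF (2.19, adjusted p = 0.0223, and 1.71, adjusted p = 0.0422) and CYR61 (1.96, adjusted p = 0.0189, and 1.85, adjusted p = 0.0142), the repressor BHLHE40 (1.40, adjusted p = 0.00415, and 1.23, adjusted p = 0.00365) and the damage-induced GADD45A (1.08, adjusted p = 0.0055, and 1.25, adjusted p = 0.000707). Between day 4 and day 7, 5 of the NF-kB pathway genes and 8 of the early response genes fell and 0 rose. Of all named genes, 2.26% were called lower and 2.57% higher between these days.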

How the data were processed

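Total RNA of colon was hybridized, 1 animal per array, to 24 1-colour (Cy3) Agilent rhesus arrays with a layout built on the rheMac2 assembly. Per the file headers, the authors extracted each scanner file with Feature Extraction, which subtracted local background and corrected trends within the array, and the deposited processed signal is an intensity that still differs in scale from array to array. Another deposited table of raw intensity matched the scanner files to within 0.001 (log2) at 100% of values outside outlier spots, and the authors gave a normalized table of log2 values in which each probe is centred on its median over the arrays. The study's methods name scaling to the 75th percentile.

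Here control spots were left out, spots marked as outliers (24 to 712 on an array) became missing values, and repeated spots were averaged on the log2 scale. The 75th percentile of each array was subtracted. Probes well above background on at least 2 arrays were kept (38234 of 43603). The files give no counting depth for arrays, and the number of animals limits the precision. Gene symbols came from the deposited normalized table (18640 probes) or from a RefSeq table matched by LOC number (3184 probes) or accession (84 probes). A further 1887 probes kept a LOC number as their name and count among the named genes, and 19808 probes were not named. The RefSeq table is of another, later assembly and was used for names only. ZFP36, MAP3K8 and CEBPB were named by it through their LOC numbers. Promoter and protein sequences were not analysed here.

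The members, and the gene lists beside them, were chosen by function with earlier results of these data known. Groups came from the sample labels. All 24 arrays entered 1 linear model with a term for each group, and moderated statistics came from eBayes in limma 3.58.1 (R 4.3.3). The 12 comparisons were the 6 irradiated groups against the controls, both doses on each day, days 7 and 12 against day 4, and the change of the dose difference. Tests were two-sided, with Benjamini-Hochberg adjustment across the probes of each comparison. The fit was tested on simulated arrays with known changes. Array by array values are given for TNF, NFKBIA, TNFAIP3 and FOS in any case and for up to 3 called members of each role with the largest day 4 changes, 16 in all. Values of TNFAIP6, TNFSF10, JUN, DUSP5 and CD83, and those of other named genes, were chosen for print after they were seen.

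Alternatives were another background correction (normexp), quantile, median and spike-in scaling, other filters on dim probes, the deposited normalized table, slide, array position, scan day and replicate number as blocks, only the groups compared, an intensity trend, the methods' t-test, no fold limit, the second brightest probe, and each array left out in turn. Some of these could not lose a call. No fold limit only loosens it, and for a gene with 1 probe the second brightest probe was the same probe. Leaving out an array of a group not compared left the log2 change as it was and altered only its test. Values within a slide, scan day or position were added after the data were seen.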

Additional observations from a re-analysis of the deposited data

Results flagged for a closer look

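Of 208 sets of 4 arrays (1 member in 1 group), 7 had an array that stood apart from the other 3 by Dixon's criterion, which chance gives in about 1 of 20 sets. BCL3 read -3.66 on day 4 replicate 4 after 7.4 Gy, against -2.90 to -2.79 on the others, and -3.80 on day 7 replicate 1 after 6.7 Gy, against -3.46 to -3.43. Among the controls, FOS was low on replicate 4 (2.98, others 3.45 to 3.54), JUNB was high on replicate 3 (-1.01, others -1.78 to -1.71) and EGR1 was high on replicate 1 (-3.48, others -4.48 to -4.42). On day 7 after 7.4 Gy, IER3 was high on replicate 4 (0.89, others 0.13 to 0.18) and ICAM1 was high on replicate 1 (-0.17, others -0.77 to -0.72). The 7 values lay on 7 different arrays.

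The change after irradiation differed between days for the members called between day 4 and day 7 or day 12, a test of the difference itself (limma, both doses). Between day 4 and day 7 the log2 differences were -1.32 for TNFAIP6, -1.23 for TNFAIP3, -1.43 for TLR4, -2.12 for EGR1, -2.01 for EGR2, -1.50 for IER3, -1.46 for DUSP5, -1.07 for CEBPB and -1.18 for CD83. Between day 4 and day 12 they were -1.16 for TNF, 1.26 for TNFSF10, -1.40 for TNFAIP6, -1.20 for TNFAIP3, -1.45 for BIRC3, -1.05 for IRAK3, -1.76 for EGR1, -1.65 for EGR2, 1.33 for KLF4, -1.78 for IER3 and -1.02 for CEBPB. Their adjusted p-values stand with the comparisons of days.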

How the results depend on the processing

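As reported, 9 members were called at 6.7 Gy and 12 at 7.4 Gy on day 4, 0 on days 7 and 12, 9 between days 4 and 7, 11 between days 4 and 12 and 0 between doses. At 6.7 Gy the count was 4 with normexp, 15 with spike-in scaling, 4 with the slide as a block, 14 with array position as a block, 4 with only the groups compared, 2 with the methods' t-test after adjustment and 16 with no fold limit. At 7.4 Gy it was 6 with normexp, 6 with the slide as a block, 3 with position and scan day as blocks and 7 with the methods' t-test. On days 7 and 12 it was 1 with spike-in scaling (JUN) and 1 with an intensity trend (BIRC3). Between days 4 and 7 it was 15 with spike-in scaling and 23 with no fold limit, and between days 4 and 12 it was 5 with normexp and 18 with no fold limit. Spike-in scaling moved the median of all genes against the controls from -0.041 to 0.20 at 6.7 Gy and from -0.031 to 0.26 at 7.4 Gy on day 4, so its counts include that shift.

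Leaving out 1 array gave 5 to 11 at 6.7 Gy (5 without 6.7 Gy day 4 replicate 2), 7 to 13 at 7.4 Gy (7 without 7.4 Gy day 4 replicate 3), 0 to 1 on days 7 and 12 (1 without 7.4 Gy day 7 replicate 3), 7 to 13 between days 4 and 7, 7 to 13 between days 4 and 12 (7 without 7.4 Gy day 12 replicate 2) and 0 to 0 between doses. A day 12 group left with 1 array is assumed to vary like the others. TNF at 7.4 Gy turned to -0.031 with position and scan day as blocks, and IRAK3 between days 4 and 12 turned to 0.091 with normexp. No other log2 change of a called member, in the comparison that called it, changed sign under these alternatives. The causes were not tested. Array position as a block could not be fitted for days 7 and 12.

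With the replicate number as a block the counts were 9 and 12 on day 4, 0 on days 7 and 12, 9 between days 4 and 7, and 13 between days 4 and 12. Each array is of a different animal, and deviations of same-numbered irradiated and control arrays correlated between -0.089 and 0.15. The highest were those of the 6.7 Gy group of day 7 (0.053 to 0.15, 2 of 4 pairs over 0.1). These arrays share slides with the same-numbered controls, and the part of the slide was not tested.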
